A study of Danio rerio with 15 samples.

Results

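The Fos and Jun family was read as the 8 genes fosaa, fosab, fosb, fosl1a, fosl2, jun, junba and junbb. These encode subunits of the transcription factor AP-1 and were chosen by symbol, with earlier results of these data known. The Fos and Jun genes jund and fosl1b were not among them and were read with other AP-1 genes. All 8 were found in both deposited tables, among 36351 genes. Stranded mRNA sequencing was done on whole wild-type zebrafish larvae (Danio rerio, strain AB), in pools of 8 to 10 animals collected 100 hours after fertilization. The labels give 3 groups of 5 pools, kept in water from 24 to 100 hours after fertilization. The water held 50 nM TCPM, 50 nM TCPMOH, or for the controls DMSO at 0.01% by volume. TCPM is tris(4-chlorophenyl)methane, an environmental pollutant with a hydrogen on its central carbon, and TCPMOH is tris(4-chlorophenyl)methanol, which carries a hydroxyl group there. Per the labels the embryos came from 20 breeding pairs and the pools from 3 experimental replicates, and the sources used here do not link pools to replicates. The p-values therefore measure the spread between these pools.

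The authors' deposited tables hold 1 DESeq2 comparison per compound and no column per pool, so values are given by group and not by sample. Each fit rested on 8 libraries, 4 of DMSO and 4 of the compound, as read from genes with 1 read in all, and the DMSO libraries were shared. The labels do not say which pool was left out. Estimated reads assigned to genes were 18.1 to 25.9 M per library. A group level below is the mean of 4 libraries in normalised reads (reads divided by the library's size factor), on the scale of the TCPM table. It carries a 95% interval that the authors' fitted spread implies. The DMSO and TCPM intervals use the spread of the TCPM fit, and the TCPMOH interval that of the TCPMOH fit. A difference in width between DMSO and TCPMOH is therefore 1 between fits, not between groups. Levels depend on transcript length as well as abundance and are compared between groups only, not between genes. Folds are before shrinkage, which is the pull toward 0 that the authors' fit applied to its log2 fold changes. Log2 fold changes are the deposited, shrunken ones unless said otherwise, with every sign turned to compound over DMSO. As deposited they carry the opposite sign, and the direction was read here from genes with 1 read in all. This holds for every value below that is credited to the deposited tables.

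AP-1 binds DNA as a dimer held together by a leucine zipper. Jun proteins pair with each other or with Fos proteins, while Fos proteins need a Jun partner. Many of these genes are immediate early genes, which are transcribed within minutes of growth factor, stress or calcium signals through kinases acting on serum response factor and CREB, and whose transcripts decay quickly. In neurons FOS is widely used as a mark of recent electrical activity. Zebrafish have duplicate copies of FOS (fosaa, fosab) and of JUNB (junba, junbb).

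The comparisons with DMSO asked which of these genes respond to each compound. Transcripts of fosab and junbb fell with both compounds, fosab by 4.22-fold and 6.21-fold and junbb by 1.93-fold and 1.97-fold for TCPM and TCPMOH. Transcripts of fosaa and fosb fell with TCPMOH, and with TCPM they did not pass the test. The remaining members, fosl1a, fosl2, jun and junba, passed the test with neither compound, and no member rose.

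Among the Fos genes, fosab (Entrez gene 394198), the zebrafish Fos copy commonly used as an activity marker, stood at 1260 normalised reads in DMSO larvae (95% interval 1127 to 1407). Its level was 299 with TCPM (265 to 337) and 202 with TCPMOH (170 to 240). Both compound groups lay far below the DMSO group, with intervals that did not reach it. With signs turned, the authors' deposited tables gave fosab a log2 fold change of -1.58 (standard error 0.092, adjusted p = 2.67e-61) with TCPM. With TCPMOH the authors' deposited table gave -1.78 (standard error 0.116, adjusted p = 2.62e-49). By fold before shrinkage fosab had rank 1 among the decreases of all 22223 genes tested with TCPM and rank 2 among those of 21491 genes tested with TCPMOH.

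The copy fosaa (Entrez gene 570238) had a different order of levels. It stood at 530 normalised reads in DMSO larvae (466 to 602), 631 with TCPM (556 to 717) and 318 with TCPMOH (275 to 368). The TCPMOH group was below both others, while the DMSO and TCPM intervals overlapped. The decrease with TCPMOH was 1.66-fold, and the authors' deposited table gives a log2 fold change of -0.54 (standard error 0.110, adjusted p = 0.000101). With TCPM the deposited table gives 0.18 (standard error 0.096, adjusted p = 0.602), which did not pass.

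Transcripts of fosb (Entrez gene 492346), an early Fos gene that in mammals is also induced in the brain by repeated stimulation, were at 221 normalised reads in DMSO larvae (196 to 250). They were at 182 with TCPM (160 to 206) and 92.7 with TCPMOH (78.2 to 110). The TCPMOH level lay below the intervals of both other groups, a 2.38-fold decrease against DMSO, with a log2 fold change of -0.86 (standard error 0.115, adjusted p = 1.96e-11) in the authors' deposited table. With TCPM the authors' deposited table has fosb at -0.21 (standard error 0.095, unadjusted p = 0.0297, adjusted p = 0.458).

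The Fos-related genes fosl1a and fosl2 encode proteins that lack the transactivation domain of FOS in mammals. For fosl2 (Entrez gene 558921) the levels of 690 in DMSO, 684 with TCPM and 631 with TCPMOH overlapped in their intervals. In the authors' deposited tables its log2 fold change was -0.01 (adjusted p = 0.997) with TCPM and -0.11 (adjusted p = 0.894) with TCPMOH. The least read member was fosl1a (Entrez gene 564241), at 51.5 in DMSO (42.0 to 63.0), 39.1 with TCPM (31.4 to 48.6) and 69.7 with TCPMOH (36.4 to 133). Its wide interval with TCPMOH covered both other groups. Neither of its log2 fold changes in the authors' deposited tables, -0.20 with TCPM (adjusted p = 0.644) and 0.05 with TCPMOH (adjusted p = 0.966), passed.

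Among the Jun genes, junbb (Entrez gene 336038), a JUNB copy whose product in mammals can restrain growth driven by JUN, was at 1133 normalised reads in DMSO larvae (1029 to 1248). It was at 586 with TCPM (530 to 648) and 577 with TCPMOH (510 to 652). The compound groups were nearly level with each other and clear of the DMSO interval. The decreases were 1.93-fold and 1.97-fold. In the authors' deposited tables the log2 fold change of junbb was -0.78 with each compound, with standard errors of 0.084 (adjusted p = 1.85e-17) for TCPM and 0.100 (adjusted p = 2.63e-12) for TCPMOH.

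The other JUNB copy, junba (Entrez gene 407086), was at 277 in DMSO (248 to 310), 217 with TCPM (194 to 244) and 234 with TCPMOH (206 to 265). Its TCPM interval lay below that of DMSO, yet in the authors' deposited table the log2 fold change of -0.27 (standard error 0.091, unadjusted p = 0.00287) had an adjusted p of 0.113. In the authors' deposited table junba was at -0.19 with TCPMOH (adjusted p = 0.536). The gene jun (Entrez gene 335916), the founding Jun subunit, was at 2041 in DMSO (1932 to 2158), 1886 with TCPM (1783 to 1994) and 1932 with TCPMOH (1781 to 2095). Its intervals overlapped between all groups, with a log2 fold change in the authors' deposited tables of -0.11 (adjusted p = 0.569) for TCPM and -0.07 (adjusted p = 0.927) for TCPMOH. For jun the 95% interval of the fold before shrinkage was 0.854 to 0.999 with TCPM, which left out 1 (unadjusted p = 0.0476 in DESeq2). With TCPMOH that interval was 0.844 to 1.06.

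**Figure D1:**
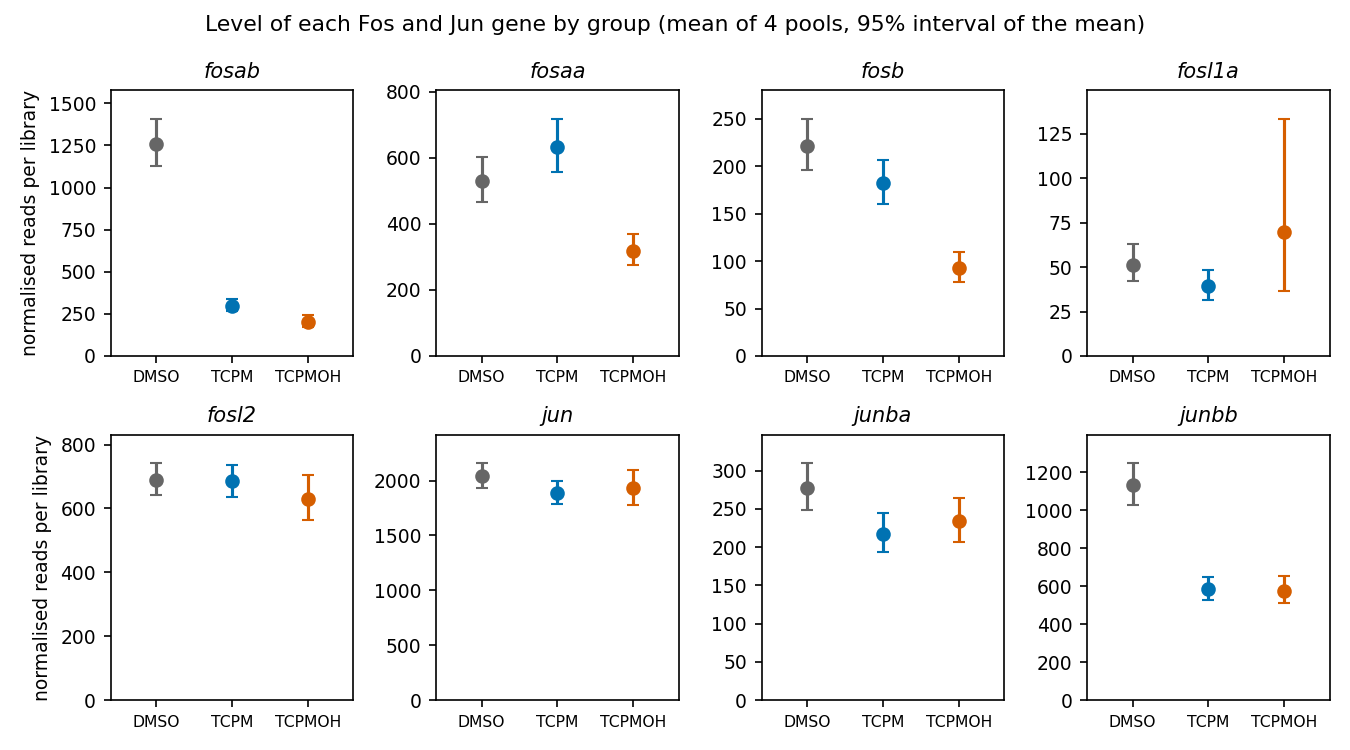
Level of each gene (y axis, normalised reads per library, starting at 0) in DMSO, TCPM and TCPMOH larvae; points are means of 4 libraries and bars the 95% interval that the fitted spread implies. The levels of fosab and junbb are low with both compounds, those of fosaa and fosb are lowest with TCPMOH, and the fosl1a bar with TCPMOH runs from 36.4 to 133. The DMSO bars use the spread of the TCPM fit.

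The members were chosen with earlier results of these data known, so the shares below describe them and are no test of the set. With TCPM 2 of the 8 members were called lower at an adjusted p under 0.05 in DESeq2, where 0.616% of the 22223 genes tested were called lower. With TCPMOH 4 of the 8 were called lower, beside 1.00% of 21491 genes. At an unadjusted p under 0.05 5 of the members were lower with TCPM, beside 3.62% of all genes tested. With TCPMOH 4 were, beside 4.41%. No member was called higher, where 1.27% of all genes tested were called higher with TCPM and 1.54% with TCPMOH. The median log2 fold change of the members was -0.20 with TCPM and -0.37 with TCPMOH, and over all genes tested it was 0.00 with each. In bulk RNA of whole larvae, fewer cells that express a gene and less RNA per cell cannot be told apart.

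The difference between the compounds was tested directly, at the same dose and times, as TCPMOH minus TCPM in log2 fold change. This was 1 pair of compounds, with p-values adjusted over 22732 genes by the Benjamini-Hochberg method on a two-sided normal test, and both comparisons share their DMSO libraries. Transcripts of fosaa and fosb were lower with TCPMOH, which carries the hydroxyl group, than with TCPM. For fosaa the difference was -0.72 (standard error 0.104, 95% interval -0.93 to -0.52, adjusted p = 7.58e-09), and before shrinkage the level was 1.98-fold lower with TCPMOH (95% interval 1.64 to 2.40). For fosb the difference was -0.66 (standard error 0.106, 95% interval -0.86 to -0.45, adjusted p = 1.41e-06), with a level 1.96-fold lower before shrinkage (1.59 to 2.41). These were 2 of 8 members, beside 0.211% of all genes tested that were called lower with TCPMOH than with TCPM.

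For the other 6 members the difference between the compounds did not pass. The smallest difference was that of junbb, whose ratio of TCPMOH to TCPM before shrinkage was 0.984 with a 95% interval of 0.841 to 1.15. The ratio was 1.02 for jun (0.925 to 1.13), 1.08 for junba (0.909 to 1.27) and 0.922 for fosl2 (0.803 to 1.06). These intervals leave out a change of 1.5-fold in either direction. For fosl1a the ratio of 1.78 had an interval from 0.790 to 4.01, too wide to say more.

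The fosab difference depended on the scale. As deposited it was -0.20 (standard error 0.106, 95% interval -0.41 to 0.01, unadjusted p = 0.0614), and the adjusted p rounded to 1. Before shrinkage fosab was 1.47-fold lower with TCPMOH than with TCPM (95% interval 1.20 to 1.81, unadjusted p = 0.000269, adjusted p = 0.0618). On that scale 0.198% of all genes tested were called lower with TCPMOH than with TCPM, fosaa and fosb among them. Shrinkage was stronger for this gene in the TCPMOH table, where its standard error was larger.

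**Figure D2:**
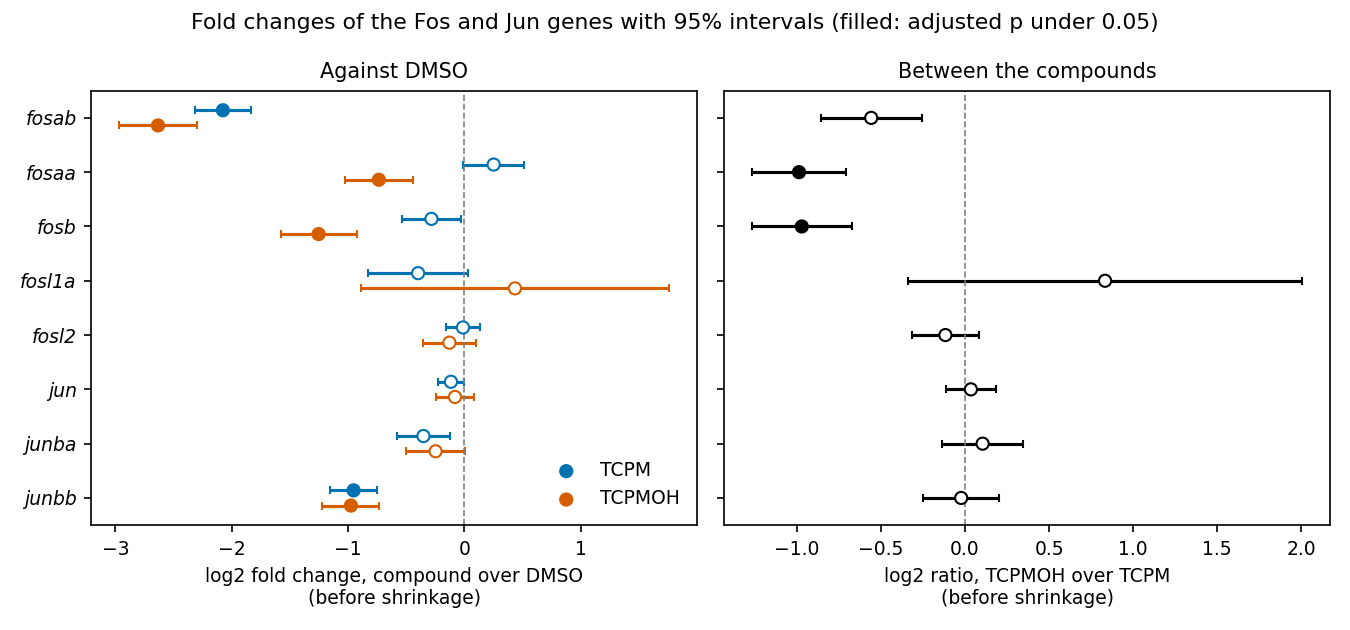
Log2 fold changes before shrinkage (x axes) of the 8 genes (y axis) for each compound against DMSO (left) and for TCPMOH over TCPM (right), with 95% intervals; filled points have an adjusted p under 0.05. The right panel has filled points at fosaa and fosb alone, at -0.99 and -0.97.

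The standard errors in the tables also carry the spread between pools, given here as the coefficient of variation beyond counting error that each fit implies. Over 16488 genes with a base mean (mean normalised reads over both groups) of at least 100 in both tables its median was 8.39% in the TCPM fit and 9.70% in the TCPMOH fit. The member with the least spread was jun, at 5.20% and 7.95%. The fosab transcript had a larger fitted spread than most genes of similar base mean. For it the value was 11.0% in the TCPM fit and 15.9% in the TCPMOH fit. Both were above the 95th percentile of genes with base means from 640 to 1280 (10.4% and 12.6%). The base mean of fosab averages its DMSO level with its much lower level under the compound. For base means from 160 to 320, which span its compound levels, the 95th percentiles were 13.4% and 18.0%, above the fosab values.

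For fosaa the spread was 12.3% in the TCPM fit, above the 95th percentile of its level class (11.6%), and 13.7% in the TCPMOH fit, within it (14.6%). For fosb it was 10.6% and 13.6%, near the medians of its classes (9.74% and 13.4%). The fosl1a spread was 15.5% in the TCPM fit, near the class median of 15.9%, and 65.0% in the TCPMOH fit, where the 95th percentile was 25.9%. The DMSO libraries are the same in both fits, and the tables do not show which library or libraries carry the larger spread. Counting error alone made up 51.7% of the variance of fosl1a with TCPM, at a mean of 38.7 reads per library.

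**Figure D3:**
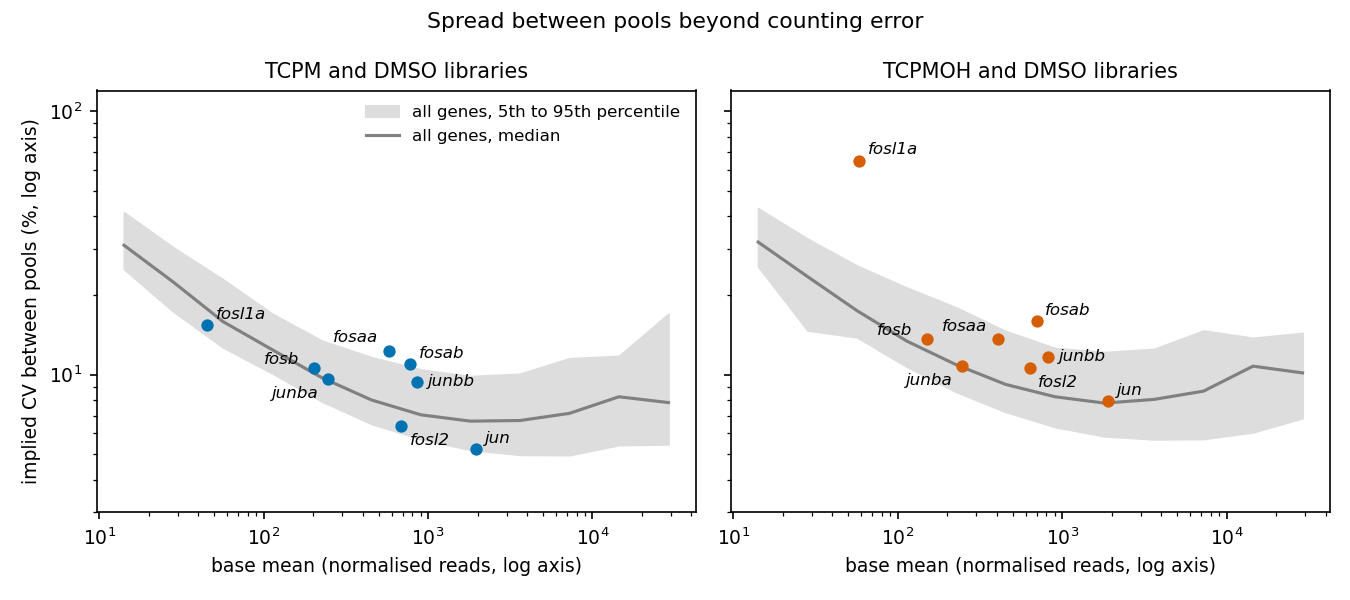
Implied coefficient of variation between pools (y axis, percent, log axis) against base mean (x axis, log axis) in the fit of each compound; grey shows the median and the 5th to 95th percentile of all genes by level class and coloured points the 8 members. The point of fosl1a in the TCPMOH fit, at 65.0%, stands far above the band, and fosab lies above it in both fits.

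The 5 genes whose pair of log2 fold changes lay closest to that of fosab were sought among 21489 genes tested in both tables, by Euclidean distance over the 2 comparisons, which share their DMSO libraries. The closest was npas4a, which encodes an activity-induced neuronal factor, at a distance of 0.12, with log2 fold changes of -1.47 and -1.83 for TCPM and TCPMOH in the authors' deposited tables. It was followed by egr4, a zinc finger early gene, at a distance of 0.68 and by si:dkey-242g16.2 at 0.77. The antiproliferative gene btg2 at 0.78 and the early gene egr1 at 1.01 came next. With TCPM and TCPMOH egr4 was 2.81-fold and 3.48-fold lower and egr1 2.10-fold and 2.23-fold lower. The decreases of fosab were larger than those of egr4 and egr1, at 4.22-fold and 6.21-fold. Those of npas4a were 3.70-fold and 6.23-fold, so with TCPMOH npas4a fell slightly more than fosab. Nearness to fosab, which was among the strongest decreases, picks out other strong decreases. The closest Fos or Jun gene was junbb, with rank 11 at a distance of 1.28.

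The genes around the family were grouped into lists. Like the members, the lists were chosen with earlier results known, so the shares given beside them are no test of a list. Of 10 other AP-1 bZIP genes found, 7 were tested. Of all genes tested, 0.616% with TCPM and 1.00% with TCPMOH were called lower, and 1.27% and 1.54% higher. In the list none passed with TCPM and 1 fell with TCPMOH. It was atf3, a stress-induced partner of Jun proteins, which the authors' deposited tables put at -0.42 (standard error 0.110, adjusted p = 0.00792) with TCPMOH and at -0.21 (adjusted p = 0.397) with TCPM. The Jun family gene jund stood at -0.09 with TCPM (adjusted p = 0.867) and at -0.30 with TCPMOH (adjusted p = 0.0691) in the authors' deposited tables. The median of the list was -0.07 with TCPM and -0.01 with TCPMOH in log2 fold change.

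The signal path list held 27 genes of kinases and factors that switch on Fos and Jun genes, among them the JNK genes mapk8a and mapk8b, elk1 and creb1a. None of the 27 passed with TCPM in DESeq2, where 0.616% of all genes tested were called lower and 1.27% higher. With TCPM 0 had an unadjusted p under 0.05, beside 8.62% of all genes tested. With TCPMOH 1 fell, beside 1.00% of all genes tested called lower. The same gene alone had an unadjusted p under 0.05, beside 2080 of 21491 genes tested. It was srfa, a gene of serum response factor, at -0.37 (standard error 0.095, adjusted p = 0.00714) in the authors' deposited table. For TCPM the authors' deposited table has srfa at -0.12 (adjusted p = 0.794). The median of the list was 0.01 with TCPM and 0.02 with TCPMOH.

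Of 17 kinase feedback genes, whose products damp MAP kinase signals or early transcripts, 3 fell with TCPM and 5 with TCPMOH, where 0.616% and 1.00% of all genes tested were called lower. None was called higher, where 1.27% and 1.54% of all genes were. The MAP kinase phosphatase gene dusp1, itself an early gene, was 1.78-fold lower with TCPM and 1.76-fold lower with TCPMOH. Its log2 fold changes in the authors' deposited tables were -0.71 (adjusted p = 2.86e-18) and -0.71 (adjusted p = 2.02e-14). The ERK phosphatase gene dusp6 also fell with both compounds, which the authors' deposited tables put at -0.28 (adjusted p = 7.53e-05) and -0.27 (adjusted p = 0.0014). So did dusp10, a phosphatase gene acting on JNK and p38 kinases, with -0.42 (adjusted p = 0.00633) and -0.55 (adjusted p = 0.000881) in those tables. With TCPMOH dusp5 and dusp2 fell too, and the authors' deposited table has them at -0.63 (adjusted p = 2.18e-07) and -0.39 (adjusted p = 0.00765). For TCPM the authors' deposited table has dusp5 at -0.27 (adjusted p = 0.0856) and dusp2 at -0.26 (adjusted p = 0.135). The dusp5 difference between the compounds, -0.35, had an adjusted p of 0.0527 in the normal test. Before shrinkage that difference was -0.46 with an adjusted p of 0.0492, so its call turns on the scale. The list's median was -0.04 with TCPM and -0.10 with TCPMOH.

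The list of 24 genes known as AP-1 targets in mammals had 22 genes in the tables, of which 18 were tested. With each compound 3 fell and none was called higher. Of all genes tested, 0.616% with TCPM and 1.00% with TCPMOH were called lower, and 1.27% and 1.54% higher. The list's median was -0.07 with TCPM and -0.01 with TCPMOH. The prostaglandin synthase gene ptgs2a fell with both, and the authors' deposited tables put it at -0.42 (adjusted p = 0.000264) for TCPM and -0.30 (adjusted p = 0.0484) for TCPMOH. With TCPM the cyclin gene ccnd1 fell too, which the authors' deposited table has at -0.17 (adjusted p = 0.0395). For TCPMOH the authors' deposited table has ccnd1 at -0.14 (adjusted p = 0.176). With TCPMOH it was ptgs2b and the growth factor gene hbegfa, which the authors' deposited table has at -0.44 (adjusted p = 0.00386) and -0.32 (adjusted p = 0.0196). For TCPM the authors' deposited table has ptgs2b at -0.21 (adjusted p = 0.480) and hbegfa at -0.19 (adjusted p = 0.350). The difference between the compounds had an adjusted p of 0.900 for ptgs2b and above that for ccnd1 and hbegfa in the normal test. The matrix protease genes mmp9 and mmp13a, widely used AP-1 readouts, were at 0.01 and 0.01 with TCPM (adjusted p = 0.998 and 0.998) and at 0.15 and 0.17 with TCPMOH (adjusted p = 0.820 and 0.715). These values are those of the authors' deposited tables. Both genes were picked after their values were seen, and they do not stand for the list. Before shrinkage the levels with TCPMOH were 1.42-fold those of DMSO for mmp9 (95% interval 0.85 to 2.38) and 1.67-fold for mmp13a (0.89 to 3.12), and both intervals include 1. A standard error allows 2 solutions for undoing the shrinkage, and both folds rest on the one with the stronger shrinkage. The other solution would put both folds nearer to 1.

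**Figure D4:**
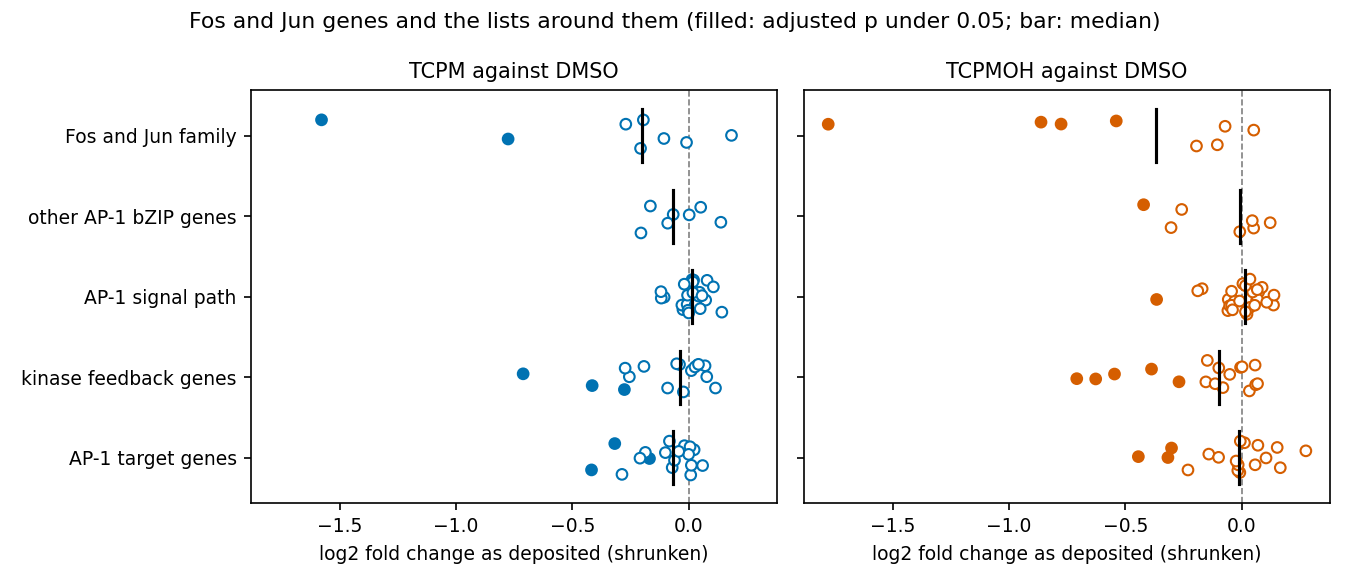
Deposited log2 fold changes, signs turned to compound over DMSO (x axis), of the tested genes of the Fos and Jun family and of 4 lists around it (y axis) with TCPM (left) and TCPMOH (right). Filled points have an adjusted p under 0.05 and bars mark medians. Fosab lies farthest left in both panels, and the 27 signal path genes cluster around 0 apart from srfa with TCPMOH.

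Markers of neurons, epidermis, skeletal muscle, liver, and neutrophils and macrophages were all read in these whole larvae. All 41 found were tested and 0 of them were at 0. No marker passed with either compound in DESeq2. Of all genes tested, 0.616% with TCPM and 1.00% with TCPMOH were called lower, and 1.27% and 1.54% higher. An unadjusted p under 0.05 was found for 2 markers with TCPM, beside 8.62% of all genes tested. With TCPMOH it was found for 1, beside 2080 of 21491 genes tested. The 9 neuron markers all had positive log2 fold changes with both compounds, with medians of 0.08 and 0.10. Their summed level was 107% of DMSO with TCPM and 107% with TCPMOH. The summed level of the 9 epidermis markers was 99.1% and 95.3% of DMSO. For the 8 skeletal muscle markers it was 106% with TCPM and 102% with TCPMOH, and for the 8 liver markers 95.6% and 93.9%. Such sums weigh the most read genes most, with actc1b at 318432 of 993693 normalised reads in the DMSO muscle sum. The liver median log2 fold change was 0.004 with TCPM, with 5 of 8 markers positive. With TCPMOH it was -0.05, with 7 of 8 negative. Among the epidermis markers 5 of 9 were negative with TCPM and 8 of 9 with TCPMOH. All 8 skeletal muscle markers were positive with TCPM, and 4 of 8 with TCPMOH. The 7 neutrophil and macrophage markers summed to 99.7% and 97.6%. Any part of these shifts in the Fos and Jun values was not tested.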

How the data were processed

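The submitters' processing notes list FastQC, cutadapt, STAR, featureCounts and DESeq2, and the gene models were version V4.3.2 per the file headers. Tool versions, the genome build and the use of strand in counting are not given in the sources used here. No coordinates are therefore reported. The deposited base mean is a signal, the mean of counts over size factors. The deposited log2 fold change and its standard error were computed by the authors and are shrunken toward 0, as the values showed. The deposited Wald score is their ratio, and the deposited p-values are its two-sided normal p and a Benjamini-Hochberg adjustment. The tables hold 0 columns of per-sample values.

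Base means of genes with 1 read in 1 library gave the libraries' size factors. Libraries whose lone-read genes were never at 0 in the other table are DMSO, and their genes had positive deposited fold changes, so all signs were turned to compound over DMSO. The shrinkage was undone as a normal prior with an SD of 0.216 (TCPM) and 0.248 (TCPMOH), 2 times the largest standard error. A standard error allows 2 solutions, and the one giving equal DMSO levels in both tables was taken. The median gap was then 0.00038 in log2 over 16488 genes, and at most 0.0036 in a member. The dispersion that reproduces each standard error gave the spread and level intervals, which are fitted, not measured per pool. TCPMOH levels were multiplied by 1.04 to the TCPM scale.

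Calls use a deposited adjusted p under 0.05. The difference between compounds took the covariance of the shared DMSO libraries as 0.5 times the product of both standard errors. It was tested over 22732 genes whose base mean reached 10 in each table. The procedure was tested on simulated data that gave both comparisons the spread of the TCPM fit. Fits of unlike spread were not covered by it. The planned edgeR and DESeq2 fits to counts and the removal of single libraries were not run, since the tables hold no counts. The members and lists were chosen with earlier results of these data known. Named were all members, called list genes (at most 6 per list) and the 5 genes nearest to fosab; jund, mapk8a, mapk8b, elk1, creb1a, mmp9 and mmp13a were added after their values were seen. A called list gene is not reported here by name. Near-identical copies may share reads. Python 3.11.15, numpy 2.4.6, pandas 2.3.3 and scipy 1.17.1 were used.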

Additional observations from a re-analysis of the deposited data

Results flagged for a closer look

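The responses of fosaa and fosb to the compounds differed in the direct test of TCPMOH minus TCPM. With signs turned to compound over DMSO, the difference in deposited log2 fold change was -0.72 for fosaa. That gene was at 0.18 with TCPM and -0.54 with TCPMOH in the authors' deposited tables. It was -0.66 for fosb, which was at -0.21 and -0.86 there.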

How the results depend on the processing

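The counts of members called were 2 with TCPM, 4 with TCPMOH and 2 different between the compounds. They stayed within 1.5 times these values in all 16 alternatives run. The count different between the compounds became 3 when the covariance came from the DMSO level and implied dispersion. The alternatives changed the adjustment, the threshold (0.01), the centring, the shrinkage, the covariance or the filter. Undoing the shrinkage kept the deposited p-values against DMSO, so the counts against DMSO could not change there. Of the alternatives for single members, 127 kept direction and side of the threshold, 1 turned direction and 1 came to pass. Some of the 127 could not come out otherwise. Undoing the shrinkage against DMSO, and the other fosl1a solution given below, keep the sign and the deposited p-value. The junbb difference between the compounds, 0.00015, turned to -0.023 with the shrinkage undone. The fosl1a difference, 0.25 (adjusted p = 0.619), passed (adjusted p = 0.00732) when the covariance came from the DMSO level and implied dispersion, and over all its alternatives the adjusted p ran from 0.00732 to 1; before shrinkage it was 0.83 with an interval of -0.34 to 2.01. The other solution for the fosl1a shrinkage with TCPMOH, an alternative chosen after seeing the data, gave 0.06 in place of 0.44; its standard error of 0.091 is under the 0.134 that counting error alone gives. The adjusted p of the fosaa difference ran from 7.4e-09 to 0.00184 and that of fosb from 2.94e-07 to 0.0215, each highest with no covariance. Without covariance 15 of all genes differed between the compounds, against 103. At a threshold of 0.01, 67 differed, and 262 and 363 genes were called with TCPM and TCPMOH, against 419 and 547. Leaving out libraries, other normalizations and a low count filter were not run, since the tables hold no counts. No paired analysis was possible because the pools carry no shared replicate number and the tables no column per pool.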
